A study of Mus musculus with 9 samples.

Results

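The cytosolic ribosomal protein genes of the juvenile mouse ovary were described here at the transcript level on postnatal days (PD) 14, 15 and 16. The 79 genes were chosen by name (Rps or Rpl with a number, plus Rpsa, Rplp0, Rplp1 and Rplp2), by a protein-coding biotype and by a mean above 1 FPKM over the 9 libraries, out of 52025 genes in the tables. FPKM counts the fragments of a gene relative to its exon length and to the mapped fragments of the library, so it is a level per length. Of the 79 genes, 31 encode proteins of the small (40S) subunit and 48 proteins of the large (60S) subunit. Since the mean FPKM selected the members, their abundance is given as a description. Just inside the limit were Rpl29 with a mean of 2.0 FPKM and Rpl10l with 2.76 FPKM, and just outside it was Rpl3l with 0.046 FPKM. Rpl6l (95.7 FPKM) and Rps4l (34.9 FPKM) carry matching names but a pseudogene biotype, and were left out.

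The libraries came from Kunming mice, an outbred stock, with no gene manipulated and no treatment, and age was the only variable. Each day was represented by 3 libraries, described as biologically independent ovaries, and the samples compared were PD14, PD15 and PD16, the days over which the first follicles of the ovary form a fluid-filled antrum. The study describes whole ovaries, whereas the labels give ovary as the tissue and granulosa cells as the source. Oocyte markers (Zp3 with a mean of 342 FPKM, Gdf9 with 238 FPKM) and stromal markers (Col3a1, 170 FPKM) stood beside the granulosa marker Inha (2152 FPKM), so the libraries held RNA of several cell types. In such bulk samples, fewer cells of a type and less RNA per cell cannot be told apart. Depth was about 20314500 to 28683000 fragments per library, as read from the step of a single fragment in the low FPKM, and no pair of libraries was identical.

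Each ribosome carries a copy of nearly every ribosomal protein, so these proteins are needed in near-equal amounts, and their mRNAs are among the most abundant of a growing cell. Their mRNAs begin with a 5′ terminal oligopyrimidine (TOP) tract, a C at the cap followed by a run of C and T, through which mTOR complex 1 and the RNA-binding protein LARP1 control translation without a change in mRNA level. In the ovary, mTOR signalling is known to act in granulosa cells and in oocytes during follicle growth. Ribosomal protein genes have also left many processed pseudogenes in the mouse genome, intronless copies made from their mRNA, whose sequence can be nearly that of the parent gene.

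Start sites are shown because the TOP tract is the feature by which these genes are translated together. Windows around RefSeq start sites (GRCm38.p6, 250 bases before to 50 after) were found for 59 of the 79 genes. A C followed by at least 4 pyrimidines stood exactly at the annotated start of 13 of these 59 genes (22%), compared with 3.01% of the 27025 genes with such a window. The motif CCGGAAG, searched on both strands, can overlap a TOP tract when read on the opposite strand (CTTCCGG). It was in the window of 25 of the 59 genes (42.4%) and of 9.93% of all genes, whereas TATAAA on either strand was in 6 of 59 (10.2%) and in 15.7% of all genes. In the following 30-base stretches, 20 bases before and 10 after the start, capitals mark the pyrimidine run at the start. Rps6 (chr4:86857358-86857387, minus strand), Rpl28 (chr7:4792945-4792974, plus strand), Rps27 (chr3:90213639-90213668, minus strand) and Rplp2 (chr7:141447631-141447660, plus strand) carried the run. No such run stood at the annotated base of 46 of the 59 genes, among them Rpl39 and Rpl10 and, shown here, their low-abundance paralogs described later, Rpl39l (chr16:10170208-10170237, plus strand) and Rpl10l (chr12:66284392-66284421, minus strand). A match is a description of these letters and not of a used start site.
Rps6: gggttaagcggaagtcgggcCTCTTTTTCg
Rpl28: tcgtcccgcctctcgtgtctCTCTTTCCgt
Rps27: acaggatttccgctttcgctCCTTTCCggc
Rplp2: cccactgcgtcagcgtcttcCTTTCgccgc
Rpl39l: cctagctcccaggcctttccggatttccgg
Rpl10l: agaaatttggcctccattttgcggctggcg

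The 79 transcripts took 9.65% to 11.2% of the FPKM total in each library. Their median level was 336 FPKM and 70 of them had a mean above 100 FPKM. Rplp1, a protein of the acidic stalk that recruits elongation factors, was the most abundant with a mean of 2480 FPKM. It was followed by Rpl8 (1297 FPKM), Rpl36 (1243 FPKM), Rps23 (1076 FPKM), a protein of the decoding centre, and Rpl4 (1065 FPKM). This order is that of the genes' own rows. With near-identical copies added, as defined below, Rpl36 ran from 1208 to 1523 FPKM and Rplp0 (mean 601 FPKM alone) from 1081 to 1353 FPKM. At the low end, 9 genes had a mean under 25 FPKM, among them Rpl29, Rpl10l, Rpl39l (6.29 FPKM), Rpl24 (6.81 FPKM) and Rpl34 (8.99 FPKM). Rpl29 was covered by 40.9 to 64.9 fragments per library, Rpl10l by 32.9 to 85.0 and Rpl8 by 39298 to 50490. The precision of a value thus differs widely among the members. These levels are per annotated exon length, and the members' exon models, with a median of 1770 bases, include long alternative exons.

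The comparison of days asked whether ribosomal protein transcripts changed while the antrum formed. Few of them passed the test. Between PD14 and PD15, 0 of 79 genes passed the limma test at an adjusted p under 0.05, and 4 had an unadjusted p under 0.05, as did 14.7% of all genes tested. Of the 15495 genes tested, 0.336% passed as higher and 0.342% as lower. Between PD14 and PD16, 1 of 79 genes rose (1.27% of the members) and 0 fell, beside 2.36% and 1.89% of all genes tested, and 6 of 79 genes had an unadjusted p under 0.05, as did 22.8% of all genes tested. Between PD15 and PD16, 0 of 79 genes passed, beside 0.432% of all genes as higher and 0.297% as lower, and 6 had an unadjusted p under 0.05, as did 14.1% of all genes. Over the 3 days in 1 F test, 1 of 79 genes passed, beside 3.03% of all genes. The count for PD16 against PD14 was 0 without PD14 replicate 3 or PD16 replicate 1, and with the copies of each gene added to it. The counts over all genes also rested on single libraries. For PD16 against PD14 they were 366 higher and 293 lower, but 55 and 37 without PD16 replicate 1 and 71 and 45 without PD14 replicate 3. For PD15 against PD14 they were 52 and 53, but 1 and 2 without PD15 replicate 1, and for PD16 against PD15 they were 67 and 46, but 8 and 6 without PD15 replicate 1.

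The median log2 change of the 79 genes was 0.07 for PD15 against PD14, 0.07 for PD16 against PD14 and 0.02 for PD16 against PD15, on the log2(FPKM + 1) scale. The same median over all genes tested was 0.01 in each comparison. Of the 79 genes, 57 were higher at PD15 than at PD14, and likewise 57 at PD16 than at PD14, comparisons that share the PD14 libraries, and 44 were higher at PD16 than at PD15. Of all genes tested, 51.9%, 52.2% and 53.1% were higher in these comparisons. The sign rested on single libraries, since without PD15 replicate 3 the median for PD15 against PD14 was -0.04 with 26 of 79 genes higher, and without PD16 replicate 1 that for PD16 against PD14 was -0.0094 with 38 of 79 higher. Most members stayed close to 0, and 67 of 79 lay within 0.25 log2 units between PD14 and PD16. The 3 libraries of PD16 lay above all 3 of PD14 for 3 genes (3.80%, among them Rps2 and Rps27) and below them for 3 genes (Rpl10l, Rpl34 and Rpl39l), beside 15.0% and 13.5% of all genes tested. At PD15, 3 genes lay above PD14 without overlap (among them Rpl21 and Rpl35a) and 1 below (Rpl10l), beside 10.4% and 10.2% of all genes. From PD15 to PD16, 1 gene lay above and 3 below (Rpl21, Rpl35a and Rpl39l), beside 9.85% and 9.73%. The plot of changes shows this narrow distribution with a few genes far from it.

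**Figure D1:**
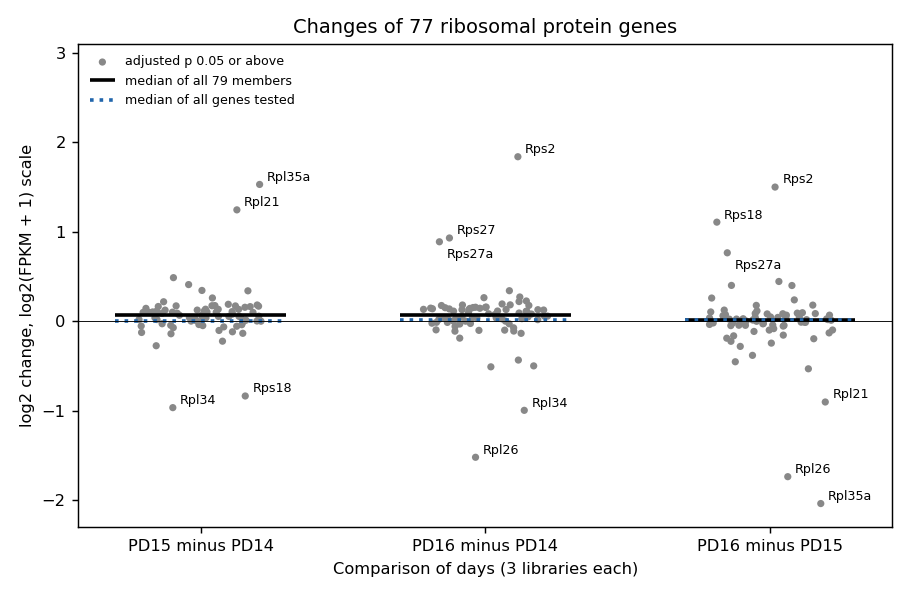
Log2 change of 77 of the 79 ribosomal protein genes in the 3 comparisons of days (vertical axis, log2(FPKM + 1) scale), with 3 libraries a day; points are spread sideways for visibility only. Most points lie within 0.25 of 0, the black bars give the median of all 79 genes, and the genes drawn had an adjusted p of 0.05 or above.

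The members with set places in the ribosome mostly had log2 changes near 0. In the stalk, Rplp1 stood at 2245, 2284 and 2641 FPKM on PD14 and at 2721, 2636 and 2305 FPKM on PD16, so that the days overlapped (log2 change 0.10, SE 0.18, adjusted p = 0.79). Rplp2, its partner, had a mean of 225 ± 19.3 FPKM (SD, n = 3) on PD14 and 209 ± 15.9 FPKM on PD16 (log2 change -0.10, adjusted p = 0.53). Rplp0, which anchors the stalk, had 658, 546 and 486 FPKM on PD14, 545, 812 and 808 FPKM on PD15 and 517, 471 and 569 FPKM on PD16 (F test adjusted p = 0.27). The level of its own row thus varied within PD15 as much as between days. That row held 37.5% to 72.7% of the fragments shared with its 3 near-identical copies. With these copies added, the within-day SD of Rplp0 was 0.14 instead of 0.24 log2 units. Its log2 change from PD14 to PD15 was 0.34 alone and -0.02 with copies. Rpl5 and Rpl11, which carry 5S rRNA into the large subunit and bind Mdm2 when ribosome assembly is disturbed, had log2 changes from PD14 to PD16 of 0.14 (SE 0.13) and 0.00 (SE 0.12). For Rpl11 the 3 daily means were 288, 290 and 288 FPKM.

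Around the exit of the polypeptide tunnel, Rpl19, Rpl22, Rpl23a, Rpl31, Rpl35 and Rpl39 had log2 changes between -0.06 and 0.18 from PD14 to PD16 (adjusted p from 0.50 to 1.00). In contrast, Rpl26 and Rpl17 at the same site jumped between libraries of a day, as described for the copies. At the mRNA entry site, Rps3 had means of 287 ± 21.6, 292 ± 43.9 and 307 ± 36.5 FPKM on the 3 days (log2 change from PD14 to PD16 0.09, adjusted p = 0.72). Its neighbour Rps2 stood at 6.51, 5.38 and 7.62 FPKM on PD14, 9.81, 8.52 and 7.13 FPKM on PD15 and 146, 11.2 and 9.56 FPKM on PD16. A single PD16 library made up most of its log2 change of 1.84 (SE 0.82, adjusted p = 0.22), which was 0.61 without that library. Rps6, the substrate of S6 kinase whose phosphorylation is read as mTOR activity, had 717, 662 and 798 FPKM on PD14, 681, 652 and 854 FPKM on PD15 and 889, 784 and 704 FPKM on PD16. The days overlapped, and the log2 change from PD14 to PD16 was 0.12 (SE 0.15, adjusted p = 0.65). The transcript level says nothing about its phosphorylation.

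Among the paralogs that can replace a standard ribosomal protein, Rpl39l and Rpl10l were of low abundance. Rpl39l, an autosomal counterpart of X-linked Rpl39 known from the male germline, stood at 5.99, 6.48 and 7.92 FPKM on PD14, at 7.28, 6.52 and 8.17 FPKM on PD15 and at 4.80, 4.24 and 5.20 FPKM on PD16. All PD16 libraries lay below all others. Its log2 change was -0.44 against PD14 (SE 0.11, adjusted p = 0.057) and -0.53 against PD15 (adjusted p = 0.065), just short of the threshold, and Rpl39 itself had -0.06 against PD14. Rpl39l has no near-identical copy by the criterion used. Rpl10l, an intronless counterpart of X-linked Rpl10 that is required in male meiosis, stood at 3.07, 3.44 and 3.79 FPKM on PD14, at 2.57, 2.55 and 2.86 FPKM on PD15 and at 1.35, 2.84 and 2.38 FPKM on PD16. All PD15 and PD16 libraries lay below all PD14 libraries (log2 change -0.28, adjusted p = 0.46, and -0.50, SE 0.16, adjusted p = 0.10). These values of Rpl10l rested on only 32.9 to 85.0 fragments per library. Rpl10 had 504 ± 52.0 FPKM on PD14 and 550 ± 53.0 FPKM on PD16. Of 10 oocyte markers, 9 had higher means at PD15 than at PD14 (median log2 change 0.20), 1 of which passed the test. Of the same markers, 10 had lower means at PD16 than at PD15 (median log2 change -0.44), 2 of which passed the test, and 8 had lower means than at PD14 (median -0.23), where the 1 marker that passed the test, Bmp15, rose (log2 change 0.39, adjusted p = 0.033, and 0.029 to 0.11 with a library left out). In single libraries the summed oocyte markers ran from 1117 to 1392 FPKM on PD14, from 1462 to 1579 FPKM on PD15 and from 1064 to 1142 FPKM on PD16, none of the 10 was at 0, and their part in the values of Rpl39l and Rpl10l was not tested. Rps27l, a target of p53 that replaces Rps27, had 109 ± 10.5 FPKM on PD14 and 122 ± 16.5 FPKM on PD16 (log2 change 0.16, adjusted p = 0.57).

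The spread between libraries of the same day was larger than the difference between days, and most members shared it. PD14 replicate 3 gave the highest value of its day for 64 of 79 genes (81.0%), PD15 replicate 3 for 69 (87.3%) and PD16 replicate 1 for 69 (87.3%). Over all genes tested, the same libraries were the highest of their day for 35.4%, 37.8% and 35.4% of genes. All 3 of these libraries held the highest value of their day for 56 of 79 genes (70.9%), beside 9.94% of all genes tested. The 3 libraries were picked as those with the highest mean member level of their day. The members' percentages are therefore partly set by that choice. The lowest values were in PD14 replicate 2 for 58 genes and in PD16 replicate 3 for 65 genes, whereas PD15 replicates 1 and 2 shared them with 44 and 31 genes. Replicate numbers are used here as names of the libraries, and the labels do not say what else they mark.

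The median deviation of the 79 genes from their own means was -0.07, -0.15 and 0.10 in the PD14 libraries, -0.10, -0.09 and 0.27 in the PD15 libraries and 0.18, 0.02 and -0.09 in the PD16 libraries, in log2 units. In the 3 high libraries the median deviation was 0.10, 0.27 and 0.14 for large subunit genes and 0.089, 0.25 and 0.21 for small subunit genes, a difference that was not tested. The 11 genes without a copy above 1 FPKM showed the same order, with 0.10, 0.29 and 0.20 in the 3 high libraries. The median deviation of all genes tested stayed between -0.01 and 0.01. As a share of all FPKM, the 79 genes took 10.5%, 11.2% and 11.1% in these libraries and 9.65% to 10.3% in the other 6. The mean by day was 10.1% ± 0.44 on PD14, 10.3% ± 0.82 on PD15 and 10.5% ± 0.54 on PD16 (SD, n = 3), so the daily means differed by less than the spread within a day. The heat map of deviations shows these columns running through most rows.

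**Figure D2:**
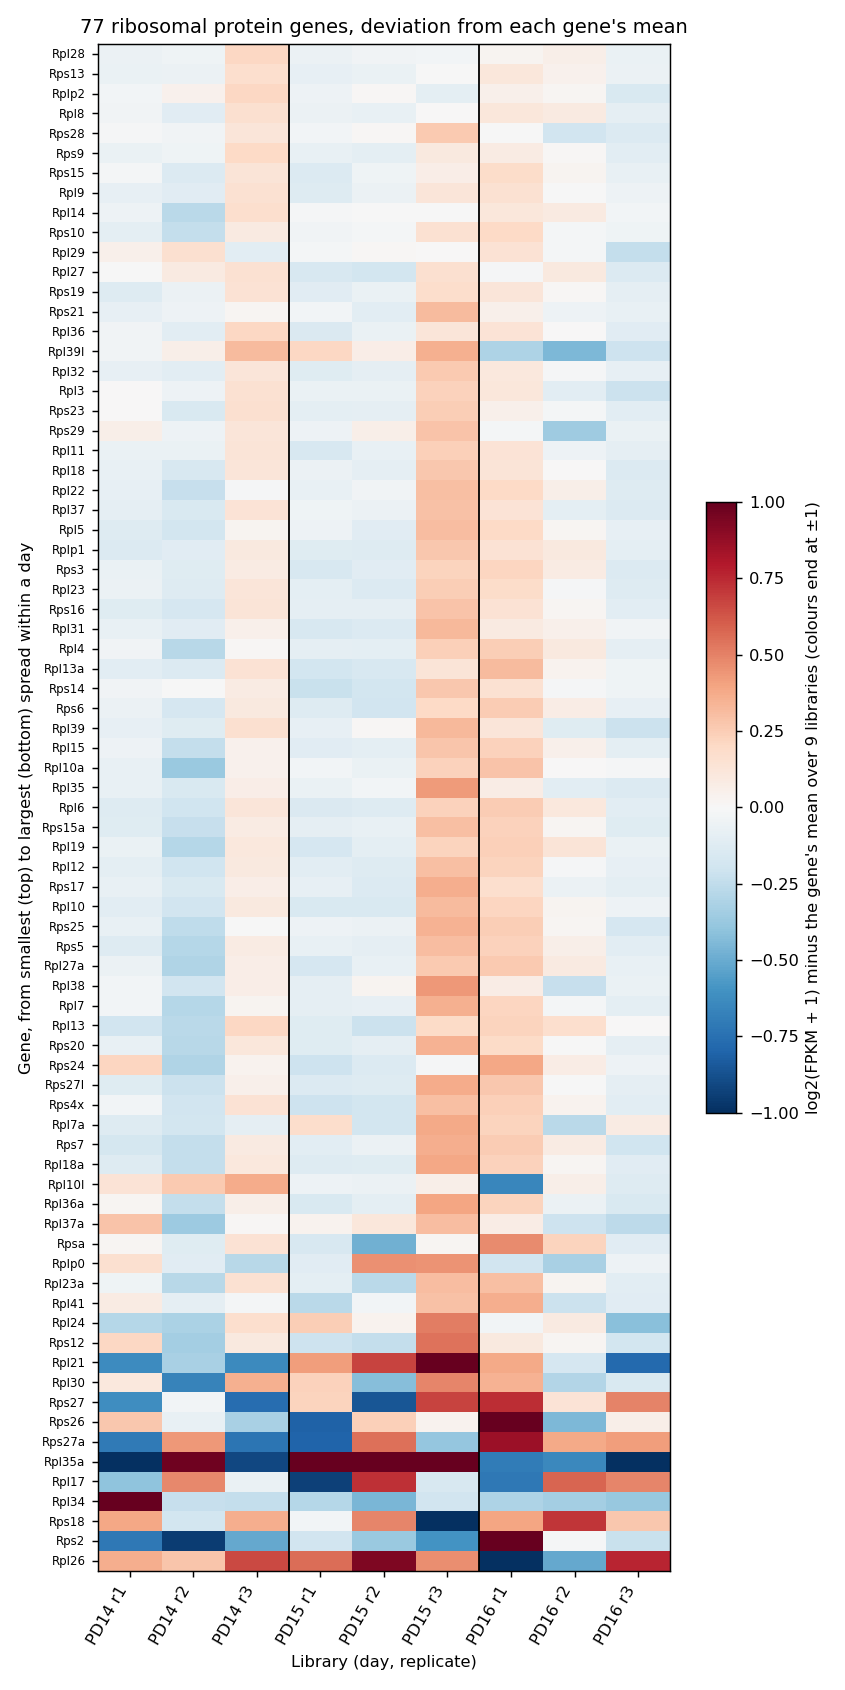
Deviation of 77 of the 79 genes (rows, ordered by the spread within a day) from its mean over the 9 libraries (columns), in log2(FPKM + 1), with colours ending at 1 in either direction. PD15 replicate 3 and PD16 replicate 1 are red for most genes, and the bottom rows, from Rpl21 to Rpl26, change colour between libraries of a day.

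Other housekeeping transcripts were often highest in the same libraries. Of 79 nuclear oxidative phosphorylation genes, 66 were highest in PD14 replicate 3, 68 in PD15 replicate 3 and 53 in PD16 replicate 1. Of 77 mitochondrial ribosomal protein genes, which are encoded in the nucleus, the counts were 56, 48 and 45. The 3 high libraries also had the highest summed FPKM of their day (331616, 342803 and 338237), against 308363 to 326584 in the other 6, and their depth was 20314500, 28683000 and 23754500 fragments. The share of mitochondrial genome transcripts was 5.52%, 6.27% and 5.92% in them, against 5.19% to 5.59% in the other 6. The slope of the trend with gene length was -0.0124, -0.0122 and 0.0058 in them, against -0.0030 to 0.0092 in the other 6. As TPM, which gives every library the same total, the within-day SD of the mean member level was 0.068, compared with 0.128 as FPKM.

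**Figure D3:**
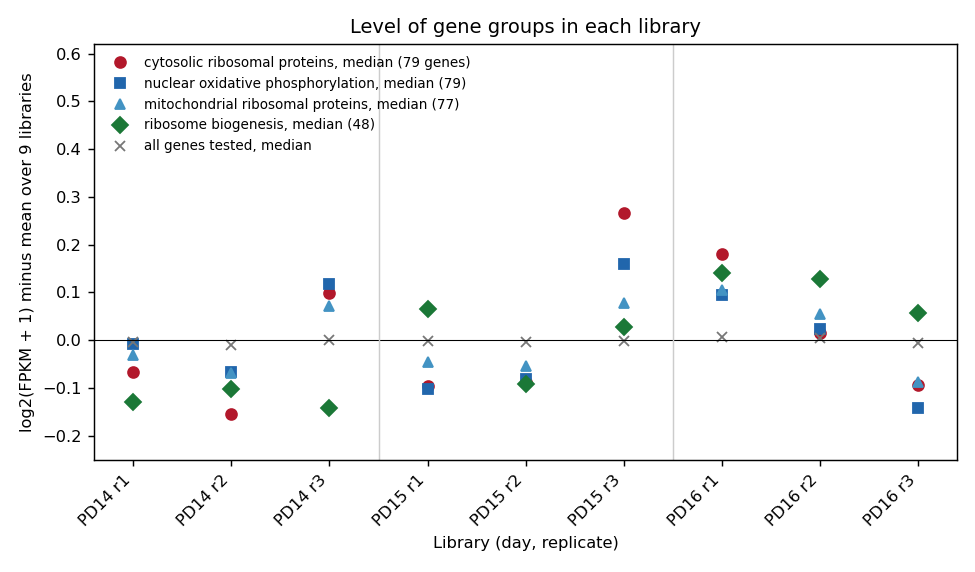
Median deviation of 4 gene groups and of all genes tested from their means over 9 libraries, in log2(FPKM + 1), for each library. The ribosomal protein genes (red circles) range from -0.15 to 0.27 and are high in the same libraries as the oxidative phosphorylation genes, whereas the ribosome biogenesis genes (green diamonds) lie lowest on PD14.

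The within-day SD of the 79 genes had a median of 0.18 log2 units, compared with 0.11 over all genes tested and 0.13 over 362 other genes with a mean above 100 FPKM. This order depended on the scaling. Over the same 15495 genes, the medians as TPM were 0.127 for the members and 0.137 for all genes, and under quantile normalization they were 0.0942 and 0.109, so that the members then varied less than all genes. When scaled to the other genes, the medians were 0.14 and 0.117. The share of a gene's variance that lay between days had a median of 14.7% for the members and 36.7% for all genes tested. After the mean deviation of the members was taken off each library, the median within-day SD of the members was 0.085 and the between-day share was 39.2%. This step takes out what the members share, so both values follow in part from it, and all genes were not treated likewise. The highest SD of a member was 1.28 before the step and 1.36 after it. Without that step, among the least variable were Rpl28 (SD 0.093), Rps13 (0.096), Rplp2 (0.10) and Rpl8 (0.11). Rpl28 stood at 343, 346 and 411 FPKM on PD14, 343, 349 and 350 FPKM on PD15 and 364, 371 and 341 FPKM on PD16. In all but 1 of these libraries its level was between 341 and 371 FPKM.

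At the other end, 10 genes had a within-day SD above 0.4, led by Rpl26 (1.28), Rps2 (1.24), Rps18 (0.92), Rpl34 (0.89) and Rpl17 (0.69). For several of them a near-identical copy took the opposite course. Copies were defined as other genes whose transcripts match at least 80% of the member's coding sequence at 95% identity or more. By this criterion 71 of 79 genes had 411 copies, 385 of them annotated as pseudogenes, and 196 copies had a mean above 1 FPKM. The copies were short, with a median exon length of 483 bases for those above 1 FPKM, against 1770 for the members. The same number of fragments thus gives a short copy a higher FPKM than a longer member. Rpl21 had 44 copies, Rpl7a 22 and Rpl29 21.

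Rps27, a zinc-finger protein of the small subunit, has an intronless copy, Rps27rt, that is annotated as protein-coding. Their coding sequences were identical over all 255 bases, of which the first 60 are shown for both, without a base to set in capitals (GENCODE M21, GRCm38, Rps27, 2 coding exons within chr3:90213248-90213615, minus strand, and Rps27rt, chr9:114982648-114982707, minus strand).
Rps27: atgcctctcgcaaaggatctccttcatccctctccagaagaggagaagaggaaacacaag
Rps27rt: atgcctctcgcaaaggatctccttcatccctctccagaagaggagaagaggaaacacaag
Rps27 stood at 176, 266 and 159 FPKM on PD14, at 317, 149 and 435 FPKM on PD15 and at 452, 299 and 384 FPKM on PD16. Rps27rt stood at 1041, 652 and 1338 FPKM, then at 506, 1272 and 623 FPKM, and then at 413, 683 and 400 FPKM. On each day the library with the highest Rps27 had less Rps27rt than the library with the lowest Rps27. Rps27 held between 24.6% and 75.3% of the joint fragments. As fragments of both over the exon length of Rps27, the pair ran from 498 to 658 FPKM, its within-day SD was 0.17 against 0.54 for Rps27 alone, and the log2 change from PD14 to PD16 was 0.93 (adjusted p = 0.16) for Rps27 alone and -0.01 for the sum.

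Rpl26, a protein at the tunnel exit, and Gm15772, a processed pseudogene on chromosome 5, differ in 2 of 438 coding bases. The stretch around 1 of them is shown because within it the 2 coding sequences differ only at that base (GENCODE M21, GRCm38, Rpl26, 2 exons within chr11:68902421-68903216, plus strand, and Gm15772, chr5:3236577-3236636, plus strand), with the differing base in capitals.
Rpl26: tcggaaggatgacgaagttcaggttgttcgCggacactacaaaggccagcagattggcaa
Gm15772: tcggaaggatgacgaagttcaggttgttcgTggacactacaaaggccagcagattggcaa
Rpl26 stood between 147 and 232 FPKM in the PD14 and PD15 libraries, and at 9.65, 84.6 and 205 FPKM on PD16. Gm15772 stood at 2220, 1603 and 1020 FPKM in the same PD16 libraries. With its 5 copies, Rpl26 had a within-day SD of 0.23, and its log2 change from PD14 to PD16 turned from -1.52 (SE 0.84, adjusted p = 0.31) to 0.19.

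Rpl35a, a large subunit protein, gave the widest differences between days that did not pass the test. It stood at 6.84, 31.3 and 7.77 FPKM on PD14, at 34.1, 35.6 and 40.6 FPKM on PD15 and at 9.17, 9.57 and 6.14 FPKM on PD16 (log2 change -2.04 from PD15 to PD16, SE 0.45, adjusted p = 0.077). The values fell into a low class of about 6 to 10 and a high class above 30, with PD14 replicate 2 among the high ones. Without that library the adjusted p was 0.0046 for PD15 against PD14 and 0.0022 for PD16 against PD15. These were the lowest of the fits with a library left out, in which the adjusted p reached 0.37 and 0.19. The log2 change from PD14 to PD15 ran from 1.16 to 2.18 in these fits. Gm10243, a processed pseudogene on chromosome 6, differs from Rpl35a in 1 of 333 coding bases and stood at 172, 144 and 228 FPKM on PD14, at 153, 127 and 191 FPKM on PD15 and at 198, 186 and 175 FPKM on PD16. Its 3 lowest values came from libraries in which Rpl35a was high. The differing base is again in capitals (Rpl35a, 2 exons within chr16:33057504-33058699, plus strand, and Gm10243, chr6:48523643-48523702, plus strand).
Rpl35a: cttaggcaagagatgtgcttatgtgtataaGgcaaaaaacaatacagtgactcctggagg
Gm10243: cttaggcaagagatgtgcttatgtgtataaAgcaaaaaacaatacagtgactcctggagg
With its 13 copies, Rpl35a had log2 changes of 0.60 from PD14 to PD15 (adjusted p = 0.16) and -0.77 from PD15 to PD16 (adjusted p = 0.085). Rpl21, a large subunit protein with a similar course, stood at 10.5, 13.2 and 10.5 FPKM on PD14, 22.8, 27.4 and 35.9 FPKM on PD15 and 22.1, 14.8 and 9.37 FPKM on PD16. Its PD15 libraries lay above all others, with a log2 change of 1.24 from PD14 (SE 0.26, adjusted p = 0.077). With a library left out the adjusted p ran from 0.044 to 0.21. It was under 0.05 only without PD16 replicate 1 (0.049) or PD16 replicate 3 (0.044), and was 0.145 with the replicate block. Rpl21 held 9.62% to 23.6% of the fragments it shared with its copies, and with them the log2 change was 0.24 (adjusted p = 0.42).

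Jumps opposite to those of a copy were also seen for Rpl17 and Rpl34. Rpl17 stood at 269, 497 and 339 FPKM on PD14, 185, 589 and 319 FPKM on PD15 and 216, 532 and 498 FPKM on PD16, whereas Rpl17-ps10 stood at 939, 386 and 959 FPKM, 918, 365 and 1151 FPKM, and 1136, 512 and 501 FPKM. In each library where Rpl17 was near 500 FPKM or above, the pseudogene was near 500 FPKM or below. Rpl34 stood at 39.9 FPKM in PD14 replicate 1 and between 4.50 and 5.61 FPKM in the other 8 libraries, and Rpl34-ps1 had its lowest value, 1207 FPKM, in that same library. Rps2 reached 146 FPKM in PD16 replicate 1, and the sum with its 15 copies stayed between 346 and 461 over the 9 libraries. With copies, the within-day SD was 0.16 for Rpl17, 0.20 for Rpl34 and 0.17 for Rps2.

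A pair of genes kept a within-day SD above 0.4 when their copies were added. Rps18, at the head of the small subunit, stood at 16.8 FPKM in PD15 replicate 3 and between 82.2 and 154 FPKM in the other 8 libraries, and its SD was 0.76 with its 3 copies. Rps27a, made as a fusion with ubiquitin, stood at 130, 288 and 128 FPKM on PD14, 122, 312 and 163 FPKM on PD15 and 387, 277 and 286 FPKM on PD16, and its SD was 0.50 with its 4 copies. Their log2 changes (0.27 and 0.89 from PD14 to PD16, adjusted p = 0.83 and 0.21) did not pass.

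**Figure D4:**
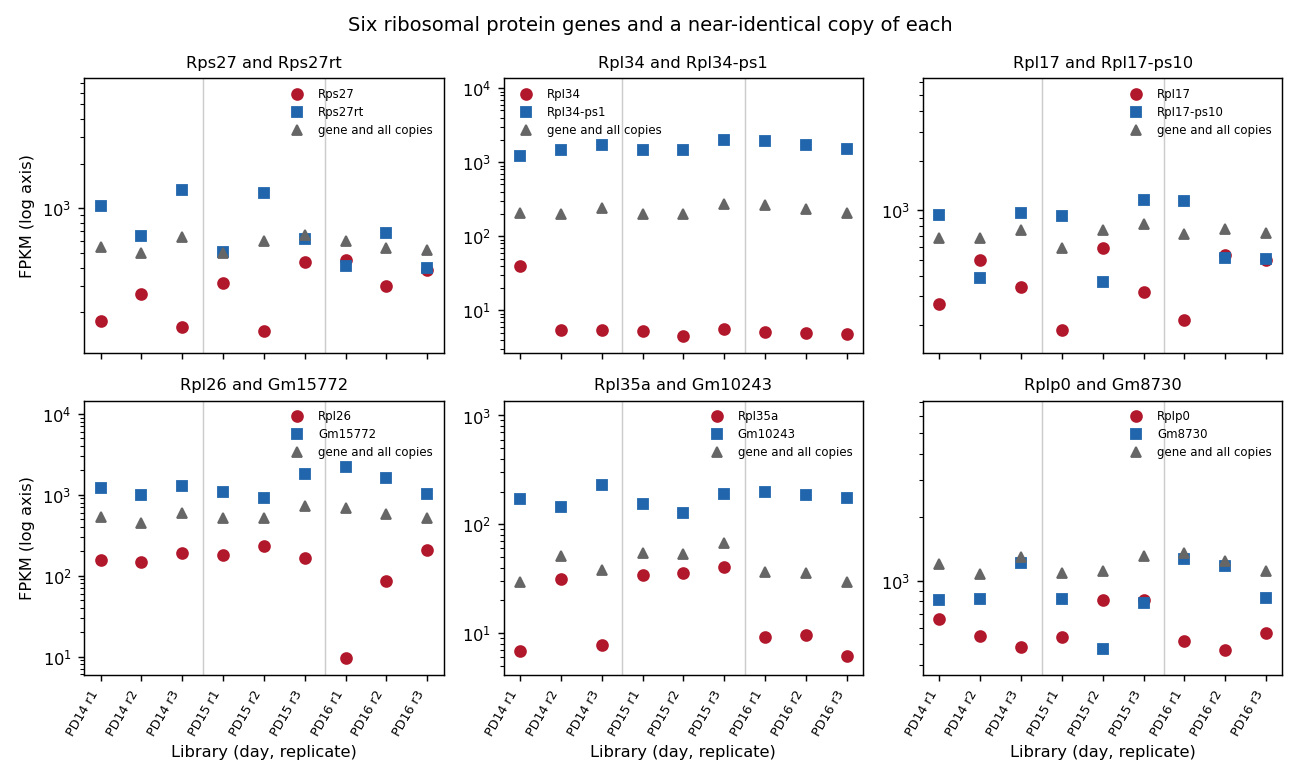
FPKM on a log axis of 6 ribosomal protein genes (circles), a near-identical copy of each (squares) and the gene with all its copies as fragments over the gene's exon length (triangles), in each of the 9 libraries. Rps27 and Rps27rt mirror each other, whereas their sum stays between 498 and 658 FPKM.

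In 11 of 79 genes the member's own row held less than 50% of the joint fragments in at least 1 library, and in 6 of them in every library. Rpl29 held 1.43% to 2.55% of its joint fragments, so that its low FPKM stands beside a pseudogene, Gm13841, at 166 to 258 FPKM. For all 79 genes, adding the copies lowered the within-day SD in 48 and moved the median SD from 0.18 to 0.177, so the common rise and fall of the libraries stayed while the jumps of single genes shrank. The number of genes above 0.4 went from 10 to 2. With copies summed, 0 of 79 genes passed the limma test in any comparison of days, and 1, 4 and 3 had an unadjusted p under 0.05 for PD15 against PD14, PD16 against PD14 and PD16 against PD15, beside 2270, 3535 and 2174 of the 15291 genes tested. Of these 15291 genes, 52 passed as higher and 55 as lower, 394 and 318, and 65 and 48 in the same comparisons. How the authors' counting assigned fragments that fit several loci is not given in the sources used here. The scatter plot of the spread shows both groups.

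**Figure D5:**
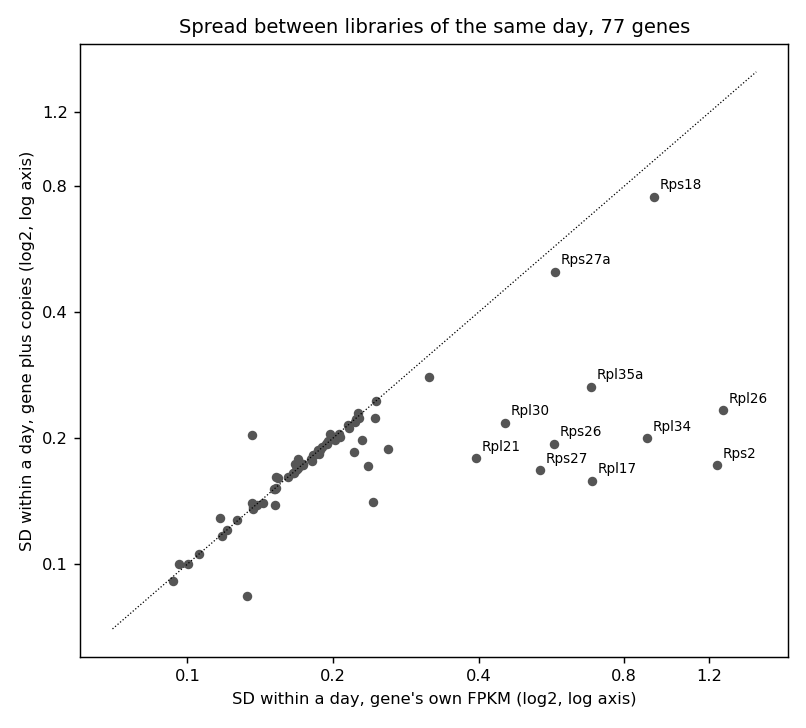
Within-day SD of 77 of the 79 genes in log2 units, from the gene's own FPKM (horizontal, log axis) and from the gene with its copies (vertical, log axis); the dotted line marks equal values. Named genes had an own SD of about 0.4 or more, and of these only Rps18 and Rps27a stay above 0.4 with copies.

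Genes that build and drive ribosomes were looked at beside the ribosomal proteins. Of 48 ribosome biogenesis genes, 43 had higher means at PD16 than at PD14 (median log2 change 0.23), and 10 rose (2.36% of all genes tested did), among them the nucleolar proteins Nop56 (0.43, SE 0.07, adjusted p = 0.018), Gnl3 (0.38) and Nolc1 (0.30), the helicase Ddx21 (0.37) and the GTPase Efl1 (0.65), which releases eIF6 from the large subunit. Nop56 stood at 33.2, 33.7 and 36 FPKM on PD14 and at 48.7, 46.4 and 45.1 FPKM on PD16, without overlap. The others that rose were Nop2, Tsr1, Heatr1, Nmd3 and Dimt1. Without PD16 replicate 1, 1 of the 48 genes passed, and without PD14 replicate 1 or PD14 replicate 3, 2 did, whereas 42 to 44 had higher means at PD16 with any library left out. Of the markers of other cell types, 5 of 5 endothelial, 8 of 10 theca and stroma and 6 of 9 tested blood and immune cell markers had lower means at PD16 than at PD14 (medians -0.14, -0.08 and -0.34). Of these 3 lists, the 1 marker that passed the test, the macrophage gene Lyz2, rose (log2 change 0.74, adjusted p = 0.029). Among granulosa markers, Cyp19a1 fell from PD14 to PD16 (-0.84). The paper instead states from qRT-PCR that it increased on PD15 and PD16, with a rise of serum estradiol and progesterone on the same days. That series was normalized to Actb and began before PD14. The cause of this difference was not tested. In the libraries, Amh (0.47) and Esr2 (0.48) rose from PD14 to PD16. The granulosa markers went both ways, 4 of 10 having higher and 6 lower means (median -0.06). Their summed levels on PD14 and PD16 were 56.6 to 59.7 and 50.9 to 53.2 FPKM for endothelium, 593 to 679 and 598 to 606 FPKM for theca and stroma, 2935 to 3608 and 2911 to 3436 FPKM for granulosa cells, and 130 to 170 and 93.7 to 144 FPKM for blood and immune cells, of which Hba-a2 was listed at 0 in 1 library. The part of these markers in the values of the biogenesis genes was not tested. Their median within-day SD over the 48 genes was 0.091, about that of all genes tested, compared with 0.18 for the ribosomal proteins. Of 41 translation factors, 0 passed in any comparison, and 33 had higher means at PD16 than at PD14 (median 0.12). Among 14 genes of mTOR signalling and of the translational control of ribosomal proteins, Myc, a transcription factor for ribosome biogenesis genes, rose from 14.3, 19.1 and 18.1 FPKM on PD14 to 29.1, 23.2 and 33.5 FPKM on PD16 (log2 change 0.70, SE 0.14, adjusted p = 0.029), and passed in 5 of 9 fits with a library left out (adjusted p from 0.021 to 0.096). Larp1, which binds the TOP tract, had a log2 change of 0.21 (adjusted p = 0.24), and Mtor itself -0.04 (adjusted p = 0.78). Of 8 further cytosolic ribosomal protein genes outside the naming rule, such as Fau, Rack1 and Rpl36al, 0 passed in any comparison, and Fau had daily means of 601, 595 and 584 FPKM.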

How the data were processed

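RNA of mouse ovaries was sequenced from NEBNext Ultra libraries on an Illumina HiSeq platform, with 3 libraries for each day. The authors deposited FPKM in 1 table per library, and the submitters' processing notes name HISAT2 2.0.5 and the build mm10. How the authors counted fragments is not given in the sources used here. The members and lists were chosen with earlier results of these data known. Values were analysed as log2(FPKM + 1). The 15495 genes with a mean above 1 FPKM on at least 1 day were tested with limma 3.58.1 (R 4.3.3, intensity trend, 9 libraries in 1 model) with Benjamini-Hochberg adjustment over all genes tested, and the method was tested on simulated data. Copies were found with BLAST+ 2.17.0 on GENCODE M21 transcripts, and their FPKM were added by exon length. This sum was chosen after seeing the data. Depth was read from steps of a single fragment, 95.6% to 96.3% of low values being whole within 0.02. Genes were named if they passed a test, held a listed role, or were among the 3 largest changes or the 5 extremes of level or spread. 2 of the 79 genes, among them the gene that passed, are not reported here by name. Pairs and motifs were chosen after their values were seen. Alternatives comprised other pseudocounts, filters, scalings, limma settings, the replicate block and each library left out. Python 3.11.15, NumPy 2.4.6, pandas 2.3.3 and Matplotlib 3.10.9 were used.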

Additional observations from a re-analysis of the deposited data

How the results depend on the processing

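The median log2 change of the 79 genes moved by less than the spread between libraries under every alternative run. The count of genes that passed was small throughout. For PD16 against PD14 it was 1, and became 0 without a filter on low values and with copies summed, and 2 (Rpl39l being added) when scaled to the other genes, with the length trend taken off, as TPM over the genes of the FPKM fit and with the replicate block. For PD16 against PD15 it was 0, and 1 under quantile normalization and under the replicate block. Over the 3 days it was 1, and became 0 without a filter and with copies summed, 3 with FPKM above 5 in every library (of 74 tested), and 2 when scaled to the other genes, under quantile normalization, as TPM over the genes of the FPKM fit and with the length trend taken off. Over all genes the F test passed 469 of 15495. In the same order as these alternatives it passed 95 of 33957, 480 of 15291, 394 of 8533, 380 of 15505, 495 of 15495, 309 of 15495 and 484 of 14705. Over all genes, the counts higher and lower for PD16 against PD14 also moved, from 366 and 293 of 15495 to 102 and 70 of 33957 without a filter, 199 and 198 of 15495 as TPM over the genes of the FPKM fit, and 247 and 243 of 15505 when scaled to the other genes. They were 394 and 318 of 15291 with copies summed, and 383 and 363 of 14705 with the length trend taken off. For PD16 against PD15 the counts over all genes were 67 and 46, and became 74 and 63 under quantile normalization and 29 and 27 under the replicate block. With a library left out, the counts of members were 0 to 1 for each pair of days and 0 to 2 over the 3 days, and the median changes were -0.04 to 0.15, -0.01 to 0.13 and -0.06 to 0.12. The median within-day SD, 0.18, was 0.15 to 0.20 with a library left out, 0.127 as TPM, 0.14 when scaled to the other genes and 0.094 under quantile normalization. Over all genes tested it was 0.11, and 0.157, 0.117 and 0.109 under these 3 scalings. As TPM 19729 genes were tested, and over the 15495 genes of the FPKM fit the TPM values were 0.127 for the members and 0.137 for all genes. The members' excess over the same genes thus turned as TPM and under quantile normalization, and remained when scaled to the other genes. The 10 ribosome biogenesis genes that rose at PD16 were 1 to 13 with a library left out, 5 as TPM, 2 without a filter on low values and 3 with the replicate block.

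Summing copies, rescaling the spread, TPM over the genes of the FPKM fit and the alternatives for the biogenesis genes were added after seeing the data. With copies summed, the log2 change turned to 0.19 and 0.032 for Rpl26 against PD14 and PD15, to 0.061 and 0.14 for Rpl34 at PD15 and PD16, and to -0.0091 for Rps27 at PD16. That of Rplp0 at PD15 against PD14 turned from 0.34 to -0.024. Rpl35a at PD16 against PD14 ran from -0.88 to 0.14, and Rps18 at PD15 against PD14 from -1.41 to 0.044, with a library left out. The replicate numbers are in the titles only. Same-numbered libraries correlated between -0.21 and 0.16 over all genes tested and between -0.05 and 0.21 over the members (differently numbered, -0.34 to 0.24). As these ranges overlap, the libraries were not taken as pairs. Whether the numbers mark a shared batch is not given. The replicate block lowered the genes called at PD16 against PD14 from 366 higher and 293 lower to 133 and 94. The cause of these shifts was not tested.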
